A study of Mus musculus with 4 samples.

Results

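The genes examined were 10 regulators of the cell cycle and of senescence: Cdkn2a, Cdkn1a, Trp53, Mdm2, Rb1, Rbl1, Rbl2, E2f1, Ccnd1 and Ccne1. They were taken by name from the 22367 protein-coding genes of the mm9 mouse annotation, and their open chromatin was followed in an immortalised preadipocyte culture. All ATAC-seq peaks with a summit within 50 kb of any annotated transcription start site (TSS) of a gene were assigned to it. Peaks of the libraries that overlapped by at least 1 bp formed 1 site, which gave 110 sites of the 100608 in all, or of the 82944 that lie within 50 kb of some TSS.

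ATAC-seq marks open chromatin by letting the Tn5 transposase insert adapters into accessible DNA. It was run on im-scWAT cells, which came from the stromal vascular fraction of subcutaneous white adipose tissue of 5-week-old mice. The cells were either Jmjd1a +/+ (WT) or Jmjd1a HY/HY (HY), where a histidine-to-tyrosine change in this histone H3 lysine 9 demethylase removes the catalytic activity. Nuclei were collected before differentiation (D0) and after 8 days (D8), with 1 library per genotype and day. Every culture, controls included, carried SV40 large T antigen from a pBabe retrovirus and had been selected with puromycin. For D8, confluent cells received indomethacin, dexamethasone, 3-isobutyl-1-methylxanthine, rosiglitazone, insulin and T3 for 2 days, and then insulin, T3 and rosiglitazone for 6 days. Whether a culture descends from 1 mouse or several, or from 1 clone, was not given in the sources used here.

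These genes sit where the immortalising protein acts. Large T antigen binds the p53 protein, encoded by Trp53, and the retinoblastoma family, encoded by Rb1, Rbl1 and Rbl2, and so removes the brakes that p53 and the retinoblastoma proteins put on division. In normal cells, cyclin D1 and then cyclin E1 drive kinases that phosphorylate the retinoblastoma proteins and free E2F factors to start S phase, while p16 and p21 inhibit those kinases. ARF, made from the same locus as p16, blocks MDM2, the ligase that degrades p53, and preadipocytes normally leave the cycle as they mature.

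The lists held between 41228 and 77994 peaks, and both D8 lists were shorter than both D0 lists. The summit pileup of a peak is the number of overlapping tags at its highest point. It was solved from the deposited fold enrichment and p-value, with a median of 13 to 15 tags in the 4 lists. Depth, read from the background rate of each list, was 0.806 for WT at D8, and 1.07 at D0 and 0.750 at D8 for HY, with WT D0 as the unit. Ratios below are pileup ratios divided by the ratio of background rates, with exact 95% binomial intervals. The intervals cover counting error only, and are too narrow because a summit is the maximum of many positions. Where 4 pileups are listed without labels, they stand in the order WT D0, WT D8, HY D0, HY D8, and pairs of ratios or of tags give WT first. With 1 library per group no test of a condition was made, and each ratio compares libraries. On this scale the median of all shared sites was not at 1. It was 0.907 for D8 over D0 in WT (log2 -0.14), 0.900 in HY (log2 -0.15), 1.06 for HY over WT at D0 and 1.11 at D8 (log2 0.15). Promoters of the adipocyte markers Adipoq, Fabp4, Plin1 and Cidec had peaks in both D8 libraries and in neither D0 library, and those of the other 3 adipocyte markers, Pparg, Cebpa and Lipe, had peaks in all 4. Of the endothelial markers, Tek had a promoter peak at D0 only (23 tags in WT, 19 in HY), Pecam1 in WT D0 alone (9 tags) and Cdh5 in none. No promoter of the blood markers Ptprc, Cd68 and Csf1r had a peak in any library. Peaks on chromosome Y numbered 1 in each WT list and 6 or 7 in the HY lists, and the source of this difference was not tested. A lower pileup can come from fewer cells with an open site or from less opening per cell, and these cannot be told apart.

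All 10 genes had a promoter peak, defined as a summit within 1000 bp of a TSS, in all 4 libraries. Among all protein-coding genes the share was 58.4% at D0 and 53.2% at D8 for WT, and 59.3% and 54.7% for HY. Of the 110 sites, 15 were at the genes' own promoters and 95 lay elsewhere. Promoter sites were mostly called throughout: 12 of the 15 were open in all 4 libraries, against 31 of the other 95. By annotation, 54 summits were intergenic, 38 intronic and 18 exonic. For 59 sites the nearest protein-coding TSS was that of the gene itself, and 22 sites lay at the promoter of another gene. The window edge did not fall in a dense region. The outermost site inside it was Ccnd1 -49137, called in WT D0 alone with 9 tags, and the nearest site outside was 54881 bp from Ccnd1, called in HY D0 alone with 8 tags.

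**Figure D1:**
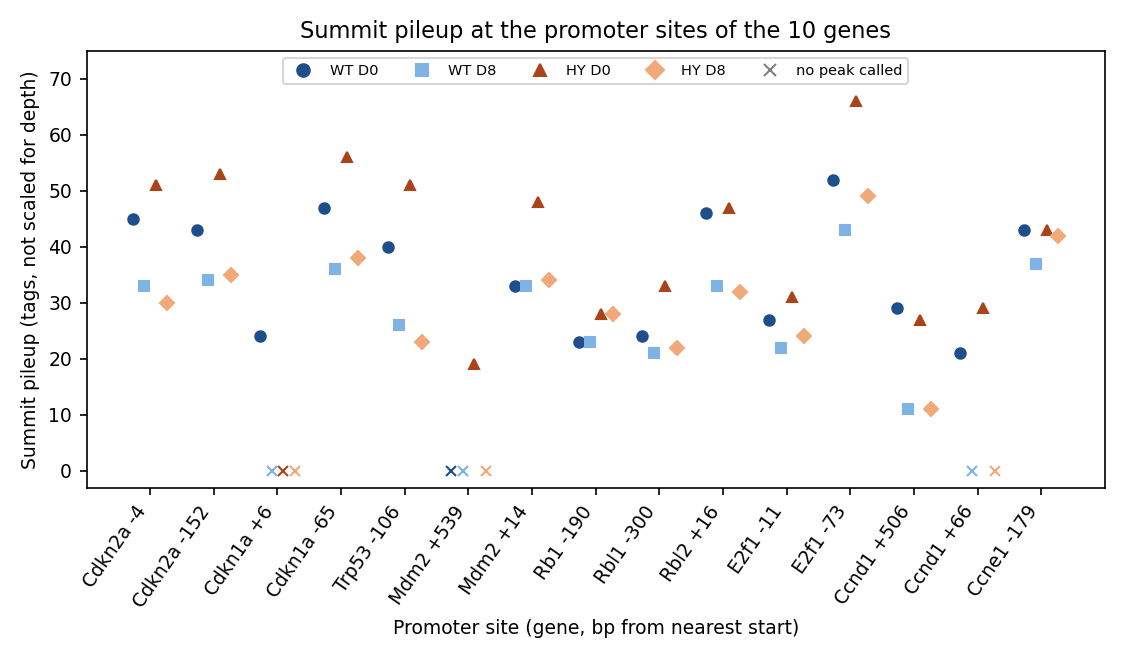
Summit pileup in tags, not scaled for depth, at the 15 promoter sites of the 10 genes (x axis, gene and distance in bp from the nearest start), with 1 point per library and a cross at 0 where no peak was called. Of the 15 sites, 12 have a peak in all 4 libraries, and the exceptions are Cdkn1a +6, Mdm2 +539 and Ccnd1 +66.

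Sequences are given for the sites on which the description turns, from the mm9 genome, 5′ to 3′ on the strand of the gene. The promoter of the p21 gene and an upstream site of Mdm2 held the 20-base p53 element, 2 copies of a 10-base repeat without a spacer. Here the 4-base core of each copy was intact and at most 2 of the other bases differed, a form chosen after the sites had been seen. This form was found in 5 of the 110 sites (4.55%) and in 0.207% of all sites within 50 kb of a TSS, in 201-base windows centred on the summit. The exact consensus was found in 0 of the 110 windows and in 0.0265% of all. Capitals mark the match in the 250 bases before the upstream Cdkn1a start (chr17:29227674-29227923, plus strand) and in the window of Mdm2 -7003 (chr10:117154717-117154917, minus strand).
Cdkn1a upstream start: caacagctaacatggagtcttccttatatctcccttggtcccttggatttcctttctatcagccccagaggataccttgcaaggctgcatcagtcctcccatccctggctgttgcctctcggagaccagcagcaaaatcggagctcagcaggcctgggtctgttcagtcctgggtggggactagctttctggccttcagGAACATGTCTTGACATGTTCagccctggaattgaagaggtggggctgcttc
Mdm2 -7003: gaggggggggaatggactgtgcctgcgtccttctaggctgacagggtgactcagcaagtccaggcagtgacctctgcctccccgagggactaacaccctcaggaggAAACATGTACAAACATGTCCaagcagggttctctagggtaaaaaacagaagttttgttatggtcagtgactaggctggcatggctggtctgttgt

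A pair of promoters held an E2F motif, searched on both strands as TTTCCCGC, TTTGGCGC, TTTCGCGC or TTTGCCGC in the 250 bases before the start. The share of all 22367 protein-coding promoters with such a match was 2.15%. In the ARF promoter of Cdkn2a (chr4:88940558-88940807, minus strand) the match was TTTCCCGC, from -65 to -58 relative to the start. In the Rbl1 promoter (chr2:157030271-157030520, minus strand) it was TTTCGCGC, from -18 to -11. The 201-base window around E2f1 -73, which reaches past the start, held 2 matches that were not in the 250 bases before it.
Cdkn2a ARF start: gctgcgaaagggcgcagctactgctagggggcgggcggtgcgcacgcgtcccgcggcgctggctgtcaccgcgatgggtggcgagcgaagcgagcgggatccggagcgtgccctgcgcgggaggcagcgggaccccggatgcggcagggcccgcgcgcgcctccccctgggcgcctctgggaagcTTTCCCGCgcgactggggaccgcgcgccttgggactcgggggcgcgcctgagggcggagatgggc
Rbl1 start: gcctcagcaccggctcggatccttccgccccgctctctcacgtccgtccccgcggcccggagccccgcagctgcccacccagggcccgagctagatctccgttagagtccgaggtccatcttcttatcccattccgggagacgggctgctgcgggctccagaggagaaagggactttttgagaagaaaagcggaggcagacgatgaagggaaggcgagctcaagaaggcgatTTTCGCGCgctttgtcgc

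Short motifs were counted in the 201-base windows of sites called on 1 day only. The AP-1 motif TGANTCA, searched on both strands, was in 5 of the 16 windows of sites open at D0 only in both genotypes (31.2%), close to the 30.7% of all such sites. It was in 0 of the 14 windows of sites open at D8 only in both genotypes, where 6.97% of all such sites held it. The C/EBP-like motif TTGCNNAA, added after the sites had been seen, was in 6 of these 14 D8-only windows (42.9%) and in 0 of the 16 D0-only windows, against 26.4% and 8.29% of all sites of the same classes. Of the 6 windows, 4 are near Rb1 (-14042, -6193, +26681 and +40698), so the share rests mainly on 1 locus. The following 3 D0-only windows are shown for their AP-1 matches, in capitals: Cdkn2a +24238 (chr4:88903758-88903958), Mdm2 -10898 (chr10:117158612-117158812) and Ccnd1 -24193 (chr7:152149867-152150067), all on the minus strand.
Cdkn2a +24238: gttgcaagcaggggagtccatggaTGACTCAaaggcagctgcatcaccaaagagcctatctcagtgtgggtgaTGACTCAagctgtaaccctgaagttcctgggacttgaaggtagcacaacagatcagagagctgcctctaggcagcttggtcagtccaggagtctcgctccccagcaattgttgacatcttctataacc
Mdm2 -10898: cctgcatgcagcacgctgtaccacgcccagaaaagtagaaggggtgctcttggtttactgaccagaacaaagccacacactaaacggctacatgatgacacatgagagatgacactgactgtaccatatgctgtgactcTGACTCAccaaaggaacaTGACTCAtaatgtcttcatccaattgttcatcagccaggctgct
Ccnd1 -24193: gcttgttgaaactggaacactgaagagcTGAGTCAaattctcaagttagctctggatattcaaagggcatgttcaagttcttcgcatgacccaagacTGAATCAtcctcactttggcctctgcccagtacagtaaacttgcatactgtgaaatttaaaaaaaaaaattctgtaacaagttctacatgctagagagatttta

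The next 3 windows belong to sites open at D8 only, with the C/EBP-like match in capitals: Rb1 -6193 (chr14:73609166-73609366), Rb1 -14042 (chr14:73617015-73617215) and Rbl1 +39015 (chr2:156979004-156979204), all on the minus strand and inside introns of these genes. Distances run from the nearest annotated start of any transcript of the gene, so that a site inside a long gene can have a negative value. A match describes the letters and does not show that a factor binds.
Rb1 -6193: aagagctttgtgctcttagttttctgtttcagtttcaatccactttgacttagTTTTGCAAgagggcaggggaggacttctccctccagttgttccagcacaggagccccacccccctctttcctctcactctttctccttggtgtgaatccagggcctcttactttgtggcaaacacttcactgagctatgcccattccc
Rb1 -14042: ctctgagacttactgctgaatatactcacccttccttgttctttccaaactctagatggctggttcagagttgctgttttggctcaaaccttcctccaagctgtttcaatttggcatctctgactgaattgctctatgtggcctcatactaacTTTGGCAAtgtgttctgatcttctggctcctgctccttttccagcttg
Rbl1 +39015: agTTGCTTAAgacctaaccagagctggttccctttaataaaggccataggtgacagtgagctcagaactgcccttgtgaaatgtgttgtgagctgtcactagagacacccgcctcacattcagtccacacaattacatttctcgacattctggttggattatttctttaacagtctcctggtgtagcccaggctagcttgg

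The first comparison asked how the sites of these genes differ between D0 and D8. In WT, 28 of 90 sites (31.1%, Wilson 95% interval 22.5% to 41.3%) were open at D0 only, against 49.7% of all sites near genes. The share open at D8 only was 17 of 90 (18.9%, 12.1–28.2%), against 12.3%. In HY, 31 of 101 sites (30.7%, 22.5–40.3%) were open at D0 only, against 46.5%, and 22 of 101 (21.8%, 14.8–30.8%) at D8 only, against 13.7%. The D0-only share of these genes was thus below that of all sites in both genotypes. The shares moved with how peaks were chosen and matched. With lists shortened to equal length the D0-only share was 18.4% for WT, against 28.6% of all sites, and 14.1% for HY, against 27.4%. When a peak had to be covered by at least 50%, it was 54.5% against 71.4% for WT, and 56.8% against 70.0% for HY. The D8-only share lay close to that of all sites under both settings. It was 26.3% against 25.6% for WT and 26.8% against 25.3% for HY with equal lists, and 27.8% against 26.4% and 29.1% against 27.4% with 50% cover. Within 10 kb of a start it was 9.68% against 11.3% for WT and 18.9% against 12.1% for HY. Promoter sites are called on both days more often, so the shares were also taken away from promoters. Away from promoters, of the genes or of any other gene, 24 of 53 WT sites (45.3%, 32.7–58.5%) were open at D0 only, against 59.1%. In HY it was 28 of 65 (43.1%, 31.8–55.2%), against 54.3%. There the all-site share was just past the upper bound in WT and inside the interval in HY. For D8 only, 13 of 53 WT sites (24.5%, 14.9–37.6%) compared with 14.5%, and 17 of 65 HY sites (26.2%, 17.0–38.0%) with 16.1%. Sites near 1 gene share its surroundings and are not independent, so these intervals are too narrow.

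Over the 4 libraries together, 43 of the 110 sites (39.1%) were open throughout, against 26.8% of all sites. A further 16 (14.5%) were open at D0 only in both genotypes, against 23.3%, and 14 (12.7%) at D8 only in both, against 6.09%. Those 14 were unevenly spread over the genes. Cdkn1a and Rb1 had 5 each, Cdkn2a had 2, Rbl1 and Ccnd1 had 1 each, and Trp53, Mdm2, Rbl2, E2f1 and Ccne1 had 0. The 29 sites called in a single library had pileups from 5 to 24 tags. Of these, 27 were at or below the median of their list, and Cdkn1a +6 (24 tags) and Mdm2 +539 (19 tags) were above it.

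**Figure D2:**
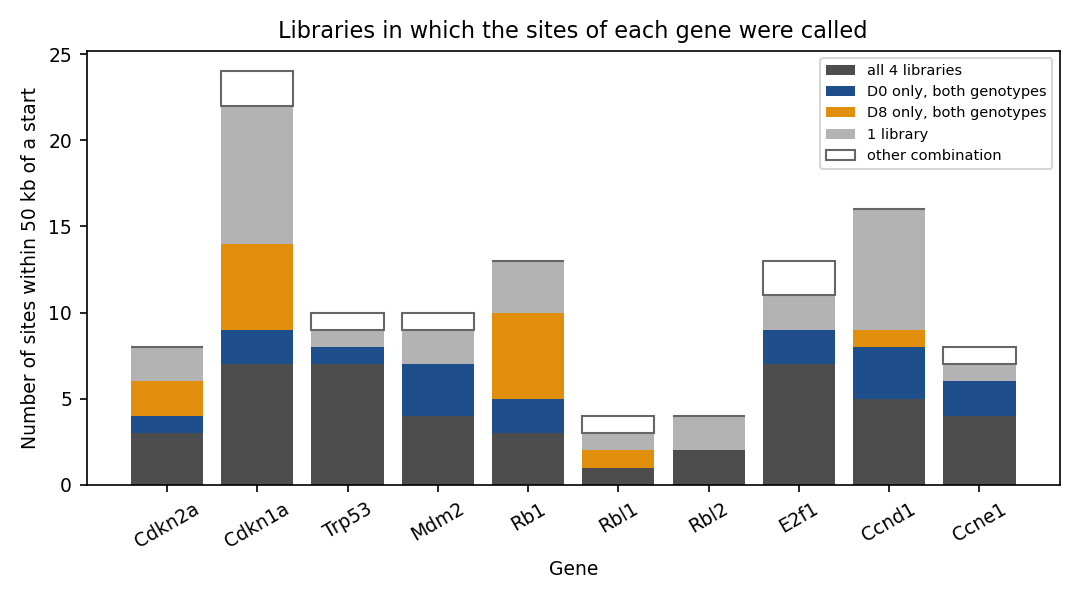
Number of sites within 50 kb of a start (y axis) for each gene (x axis), split by the libraries in which the site had a peak. Cdkn1a has the most sites, 24, and Cdkn1a and Rb1 each have 5 sites called at D8 only in both genotypes, while Trp53, Mdm2, Rbl2, E2f1 and Ccne1 have 0.

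Of sites called on both days, few differed past 2-fold. In WT, 3 of 45 shared sites were past 2-fold lower at D8, against 13.3% of all shared sites, and 3 were past 2-fold higher, against 4.39%. In HY, 2 of 48 were lower, against 15.5%, and 2 were higher, against 5.08%. The median ratio over the genes' shared sites was 1.01 in both genotypes, above the medians of all shared sites given above. By the strongest promoter peak of each gene it was 0.988 in WT, against 0.971 of all genes, and 0.973 in HY, against 1.01. At promoters, 1 of 10 genes was past 2-fold lower in WT (Ccnd1), against 5.04% of genes, and 0 in HY, against 5.24%. With ratios scaled by the median of shared sites, Ccnd1 was no longer past 2-fold in WT: its sites +506 and -1830 were at 0.525 and 0.533, and only Ccne1 +38043, at 0.483, stayed past 2-fold lower. In HY that scaling left Mdm2 -20625 lower, at 0.472, took Ccne1 -34463 to 0.540 and brought Cdkn1a -36899 and Mdm2 -7003 past 2-fold higher, at 2.13 and 2.12. No promoter of the 10 was past 2-fold higher, against 1.43% of genes in WT and 1.47% in HY.

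**Figure D3:**
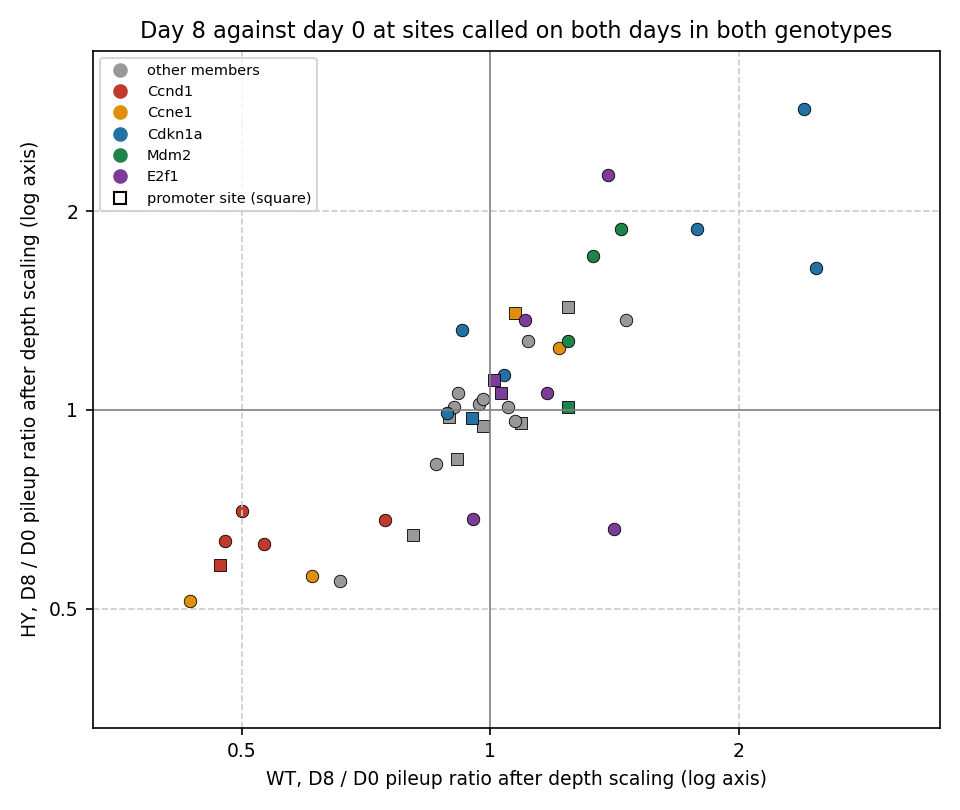
D8 over D0 pileup ratio after depth scaling in WT (x axis) and HY (y axis), both on log axes, for the 43 sites with a peak in all 4 libraries, with squares for promoter sites and dashed lines at 0.5 and 2. The 5 Ccnd1 sites lie below 1 in both genotypes, and Cdkn1a +25624 lies above 2 in both.

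Of the inhibitors, Cdkn2a encodes p16, which blocks the cyclin D kinases, and ARF, which protects p53. Its 8 sites (chr4:88920377-88940557 spans the gene, minus strand) included both promoters. At the p16 start the pileup was 45 tags at D0 and 33 at D8 for WT, and 51 and 30 for HY. At the ARF start, whose sequence is given above, it was 43, 34, 53 and 35 in the same order. After depth scaling both promoters were close to level between days. The p16 ratio was 0.910 (0.563–1.46) for WT and 0.842 (0.518–1.35) for HY, and the ARF ratio was 0.981 (0.607–1.58) and 0.946 (0.599–1.48). The strongest site in the window was the promoter of the neighbouring inhibitor gene Cdkn2b, at -16353, with 59, 46, 66 and 47 tags. A pair of weak intronic sites between the p16 and ARF starts was called at D8 only: -5973 with 12 tags in WT and 8 in HY, and +5756 with 10 and 8. The site at +24238, in an intron of Gm12606, was called at D0 only, with 13 tags in WT and 17 in HY.

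Cdkn1a encodes p21, the kinase inhibitor best known as a p53 target. It had 24 sites (gene at chr17:29227924-29237667, plus strand), the most of the 10 genes. Its main promoter site, 65 bp before the start at 29230717, had 47 tags at D0 and 36 at D8 for WT, and 56 and 38 for HY. The D8 over D0 ratios, 0.951 for WT and 0.972 for HY, had intervals that include 1. The strongest site was intronic, at +1755, with 63, 53, 71 and 56 tags. The upstream start at 29227924, which carries the p53-like element at -51 to -32, had a peak in WT D0 alone. That peak (+6) had 24 tags over a local background of 6.71, a fold of 3.24.

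Farther out, Cdkn1a had sites that differed between days. Of its 24 sites, 5 were called at D8 only and 2 at D0 only in both genotypes. Rb1 had the same counts with 13 sites. Of all sites near genes, 6.09% were open at D8 only and 23.3% at D0 only in both genotypes. Called at D8 only in both genotypes were -45814 (23 tags in WT, 27 in HY), -32916 (17 and 18), +15926 (9 and 10), +17926 (9 and 7) and +36296 (27 and 21). The last lies 553 bp from the start of Rab44, and the sites from -45814 to -32916 are nearer to the start of Srsf3 than to Cdkn1a, so their gene is ambiguous. The site at +25624, in an intron of the non-coding gene Gm16194 and nearer to the start of Rab44 than to Cdkn1a, had 16 tags at D0 and 31 at D8 for WT, and 19 and 38 for HY. Its ratio was 2.40 (1.28–4.71) in WT and 2.86 (1.61–5.26) in HY, higher at D8 in both. The site at +38254, 123 bp from the Rab44 start, had 15, 30, 27 and 31 tags, with ratios of 2.48 (1.29–4.96) and 1.64 (0.950–2.86). At -36899 the pileups were 16, 23, 19 and 25, with ratios of 1.78 (0.902–3.61) and 1.88 (0.997–3.62). In the other direction, -42213 (19 tags in WT, 15 in HY) and -41702 (24 and 29) were called at D0 only. Sites with opposite patterns were thus within a few kb of each other upstream of the gene. The local background also differed at the gaining sites: at +25624 it was 0.846 in WT D0 and 1.72 in WT D8, and 0.963 and 1.96 in HY. By the deposited fold enrichment, which divides by that background, the +25624 ratios were 1.28 in WT and 1.29 in HY, no longer past 2-fold, and the +38254 ratios were 1.07 in WT and 0.789 in HY.

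Trp53 encodes p53 itself, the factor that large T antigen binds. It had 10 sites (gene at chr11:69393861-69405375, plus strand), of which 7 were open in all 4 libraries and 0 at D8 only in both genotypes. The promoter site at -106, which overlaps an exon of the divergent gene Wrap53, had 40 tags at D0 and 26 at D8 for WT, and 51 and 23 for HY. The D8 pileups were the lower ones in both genotypes, with ratios of 0.807 (0.473–1.35) and 0.646 (0.377–1.08), and both intervals include 1. The neighbouring sites had ratios nearer to 1, with intervals that overlap these. At -1023, at a Wrap53 start, the pileups were 58, 50, 67 and 45, with ratios of 1.07 (0.718–1.59) and 0.962 (0.644–1.42). In the first part of Trp53, at +1159, they were 43, 34, 48 and 35, with ratios of 0.981 (0.607–1.58) and 1.04 (0.656–1.65). The site called at D0 only in both genotypes, +25081, was weak, with 8 tags in each.

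Mdm2 encodes the ligase that marks p53 for degradation and is itself a p53 target gene. It had 10 sites (gene at chr10:117125944-117147814, minus strand). The promoter site at +14 had 33 tags at D0 and 33 at D8 for WT, and 48 and 34 for HY, with ratios of 1.24 (0.742–2.07) and 1.01 (0.634–1.61). A second promoter peak, at +539, was called in HY D0 alone with 19 tags over a local background of 3.76. The site at -7003, whose p53-like element is printed above, had 31, 36, 32 and 42 tags. It was higher at D8 in both, with ratios of 1.44 (0.867–2.41) in WT and 1.88 (1.16–3.08) in HY, and the same window also holds 1 AP-1 match. The site at -10898, with 2 AP-1 matches, was called at D0 only, with 21 tags in WT and 29 in HY, and +3145 (17 and 10) and +39274 (10 and 7) were D0-only as well. Sites on the 2 sides of the comparison thus lie within 4 kb of each other before the start. The site at -20625 had 20 tags in WT D0, no peak in WT D8, 24 tags in HY D0 and 7 in HY D8, a ratio of 0.418 (0.152–0.999) in HY.

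Of the retinoblastoma family, Rb1 had 13 sites (gene at chr14:73583480-73725629, minus strand). Its promoter site at -190 had 23 tags at D0 and 23 at D8 for WT, and 28 and 28 for HY. The depth-scaled ratios were 1.24 (0.665–2.31) and 1.43 (0.817–2.51), with intervals that include 1, and by fold enrichment they were 0.993 and 0.851, on the other side of 1. The highest single Rb1 pileup, 34 tags in HY D0, was at +1805, 90 bp from the start of Lpar6. In the other libraries -190 had more tags. The pileups at +1805 were 22, 16, 34 and 24, with ratios of 0.903 (0.443–1.80) and 1.01 (0.574–1.76). All 5 sites of Rb1 open at D8 only in both genotypes lay in the 3′ part of the gene or beyond it. In introns of Rb1 were -6193, with 16 tags in WT and 17 in HY, and -14042, with 11 and 14. In the neighbouring gene Rcbtb2 were +26681 (11 and 10), +30962 (13 and 15) and +40698 (8 and 18). These lie 2134, 1580 and 628 bp from the start of Rcbtb2, so their gene is ambiguous. The D0-only sites of Rb1, also intronic, were +4984 (9 tags in WT, 12 in HY) and -5959 (13 and 9). Within the gene, both kinds of site were therefore found in introns.

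Rbl1 encodes p107 and Rbl2 encodes p130, the other retinoblastoma relatives. The Rbl1 promoter site at -300 (gene at chr2:156971629-157030270, minus strand), whose start carries the E2F match printed above, had 24 tags at D0 and 21 at D8 for WT, and 33 and 22 for HY. Its ratios were 1.09 (0.575–2.04) and 0.955 (0.530–1.69), close to 1. The intronic Rbl1 site at +39015 was called at D8 only, with 21 tags in WT and 18 in HY. The intronic site at +22034 had 14 tags in WT D0, 17 in HY D0 and 6 in HY D8, and no peak in WT D8. The Rbl2 promoter site at +16 (gene at chr8:93593956-93647743, plus strand) had 46, 33, 47 and 32 tags, with ratios of 0.890 (0.552–1.42) and 0.975 (0.602–1.56). The site at Rbl2 +19031, which is 133 bp from the start of Aktip, had 71, 60, 85 and 60 tags, the highest of the 110 sites in every library but HY D8. Neither gene had a site open at D0 only in both genotypes.

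E2f1 encodes an activating E2F factor that the retinoblastoma protein holds in check. It had 13 sites (gene at chr2:154385143-154395628, minus strand). The site at -73 had 52 tags at D0 and 43 at D8 for WT, and 66 and 49 for HY, with ratios of 1.03 (0.669–1.57) and 1.06 (0.719–1.56). A second promoter site, -11 relative to an inner start, had 27, 22, 31 and 24 tags, with ratios of 1.01 (0.549–1.84) and 1.11 (0.623–1.95). Both E2f1 promoter sites were level between days. The 250 bases before the outer start held 3 CCAAT boxes, where 35.0% of all promoters held at least 1. Away from the promoter, +16736, in an exon of 1700007I08Rik, had 13 tags at D0 and 27 at D8 for WT, and 26 at D8 but no peak at D0 for HY, with a ratio of 2.58 (1.29–5.44) in WT. At +25756 the pileups were 17, 19, 12 and 19, with ratios of 1.39 (0.683–2.84) and 2.27 (1.05–5.12), and by fold enrichment the HY ratio was 1.82, no longer past 2-fold. The strongest E2f1 site, -33829, 13 bp from the start of Pxmp4, had 63, 56, 66 and 63 tags, with intervals of the ratio that include 1 (0.756–1.61 in WT and 0.952–1.96 in HY). The site at -14248 was called at D0 only, with 15 tags in WT and 21 in HY.

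Ccnd1 encodes cyclin D1, the first cyclin to rise when cells are driven to divide. It had 16 sites (gene at chr7:152115836-152125774, minus strand). In WT, 7 were called at D0 only, 5 on both days and 2 at D8 only, and in HY 5, 5 and 1. The D0-only part was near that of all sites near genes, 49.7% in WT and 46.5% in HY. All 5 sites called in all libraries had ratios below 1 in both genotypes. Their median was 0.501 in WT, the lowest gene median there, and 0.633 in HY. The medians of all shared sites were 0.907 and 0.900. At +506, in the first part of the gene, the pileup was 29 tags at D0 and 11 at D8 for WT, and 27 and 11 for HY. The ratio was 0.471 (0.212–0.971) for WT and 0.583 (0.261–1.22) for HY. The other promoter peak, +66 at the outer start, was called at D0 only, with 21 tags in WT and 29 in HY. At -1830 the pileups were 39, 15, 43 and 19, with ratios of 0.477 (0.244–0.886) and 0.633 (0.348–1.11). At -3522 they were 20, 12, 21 and 10, with ratios of 0.745 (0.332–1.60) and 0.682 (0.287–1.51).

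The strongest Ccnd1 site, +23423, is 326 bp from the start of Oraov1 and had 52, 21, 51 and 25 tags. Its ratios were 0.501 (0.287–0.847) in WT and 0.702 (0.417–1.15) in HY. The far sites -24193, with 18 tags in WT and 16 in HY, and -41764, with 13 and 9, were called at D0 only. A single Ccnd1 site, +10254 in an intron of Oraov1, was called at D8 only in both genotypes, with 7 tags in WT and 8 in HY, near the lowest pileup that gave a peak, and +41742 was called in WT D8 alone, with 6 tags. The local background around the promoter was lower at D8 too, and whether that drop is separate from that of the peaks was not tested. The local background at +506 was 4.37 at D0 and 1.12 at D8 for WT, and 4.24 and 1.38 for HY. At -1830 it was 4.81, 1.39, 4.73 and 1.46. The deposited fold enrichments, which are relative to that background, were therefore almost equal at +506, 5.59 in WT D0 and 5.65 in WT D8, with a ratio of 1.01, and at -1830 their ratios were 0.973 in WT and 1.06 in HY. At -3522 the fold enrichment was higher at D8, with ratios of 1.44 and 1.11.

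**Figure D4:**
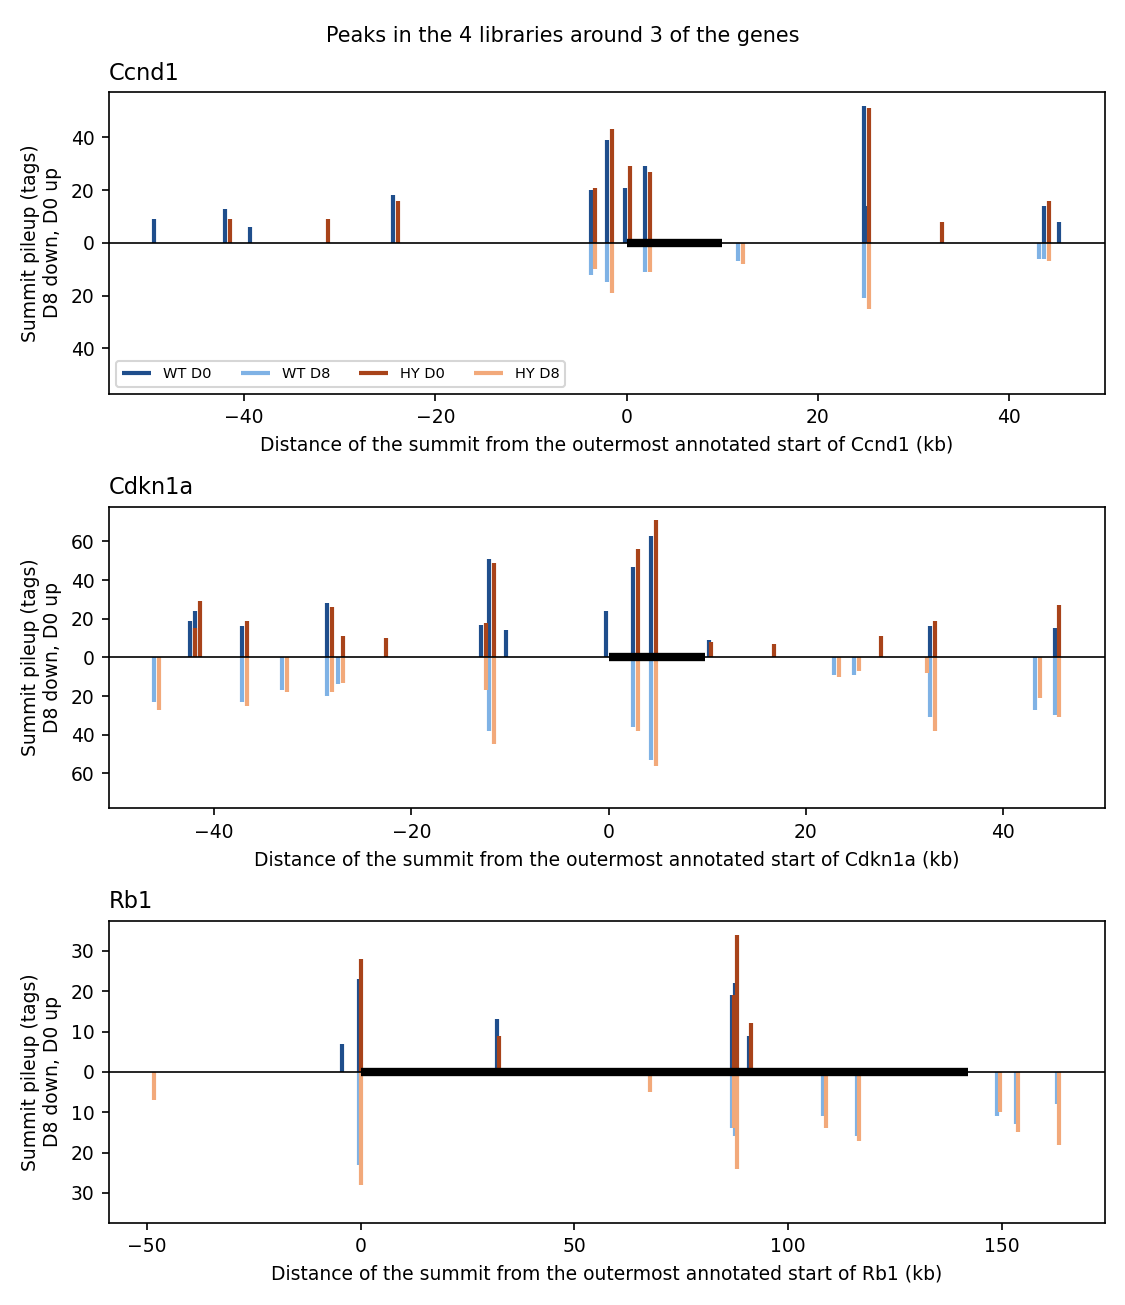
Summit pileup in tags (y axis, D0 upwards and D8 downwards) of every peak site near Ccnd1, Cdkn1a and Rb1 against the distance in kb from the outermost annotated start (x axis), with WT and HY bars offset sideways to be seen and the gene as a black bar. Ccnd1 has most of its bars above the line, Cdkn1a has bars on both sides, and Rb1 has 5 pairs of D8 bars in the 3′ part of the gene or beyond it.

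Ccne1 encodes cyclin E1, which acts after cyclin D1 at the entry to S phase. It had 8 sites (gene at chr7:38883003-38892553, minus strand). At its promoter site, -179, the pileup was 43 tags at D0 and 37 at D8 for WT, and 43 and 42 for HY. The ratios were 1.07 (0.669–1.70) and 1.40 (0.892–2.19), with intervals that include 1. Some distal sites were lower at D8. At -4626 the pileups were 49, 24, 46 and 18, with ratios of 0.608 (0.357–1.01) and 0.560 (0.306–0.985). At +38043 they were 43, 15, 53 and 19, with ratios of 0.433 (0.223–0.795) and 0.513 (0.287–0.882), and the interval lay below 1 in both genotypes. The site at +14297 was level, with 41, 40, 45 and 39 tags. Called at D0 only were +21967, with 18 tags in WT and 28 in HY, and -20945, with 16 and 30. The site at -34463 was past 2-fold lower in HY, with 15 tags at D0 and 5 at D8 and a ratio of 0.477 (0.136–1.38), and in WT it had a peak at D0 alone, with 10 tags.

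The second comparison asked whether the HY cells differ from the WT cells at these genes. At D0, 9 of 88 sites (10.2%) were open in WT only, against 11.7% of all sites, and 15 of 88 (17.0%) in HY only, against 20.4%. At D8, 3 of 73 (4.11%) were open in WT only, against 9.58%, and 11 of 73 (15.1%) in HY only, against 24.6%. The HY lists were the longer ones on both days, and with lists of equal length the order turned: 10.3% were open in WT only and 3.45% in HY only at D0, and 8.96% and 7.46% at D8. It also turned at D8 with a -log10 q of at least 5, to 8.62% and 5.17%. The shares of all sites by genotype were not computed under these settings, so whether all sites turn likewise is not known. No member site was called in both libraries of 1 genotype and in neither of the other. The share of all sites with such a pattern was not computed, so this count has nothing to be set against. At sites called in both genotypes, 0 of 64 at D0 were past 2-fold lower in HY, against 1.26% of all sites, and 0 past 2-fold higher, against 1.96%. At D8, 1 of 59 was lower, against 0.457%, and 1 was higher, against 1.58%. The lower one was E2f1 +20494, at the start of 1700003F12Rik, with 42 tags in WT D8 and 18 in HY D8, a ratio of 0.460 (0.249–0.817). The higher one was Rb1 +40698, with 8 and 18 tags and a ratio of 2.42 (1.00–6.42). By the deposited fold enrichment neither was past 2-fold: it was 9.33 for WT and 6.10 for HY at E2f1 +20494, and 5.78 and 10.7 at Rb1 +40698. The median HY over WT ratio of the genes' shared sites was 1.07 at D0 and 1.13 at D8, near the medians of all shared sites. The promoters of the 10 genes were within 2-fold of each other between the genotypes on both days wherever both had a peak.

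The wider pathway was followed at the promoters of 63 genes in 6 lists, given by the strongest promoter peak of each gene. Of all protein-coding genes, 58.4% at D0 and 53.2% at D8 had a promoter peak in WT, and 59.3% and 54.7% in HY. The median D8 over D0 ratio of all protein-coding genes with a promoter peak on both days was 0.971 in WT and 1.01 in HY. Of those genes, 5.04% in WT and 5.24% in HY were past 2-fold lower, and 1.43% and 1.47% past 2-fold higher. All 5 further CDK inhibitor genes had a promoter peak in each library, with a median ratio of 1.02 in both genotypes and 0 past 2-fold. Cdkn2c, which encodes p18, had 41 tags at D0 and 49 at D8 for WT, and 53 and 37 for HY. Of the cyclins and CDKs, all 9 genes had a peak in each library, and the medians were 0.778 in WT and 0.988 in HY, with 0 past 2-fold. The other D-type cyclins were below 1 in both genotypes: Ccnd2 had 37, 20, 47 and 24 tags, with ratios of 0.671 and 0.731, and Ccnd3 had 58, 31, 60 and 26, with ratios of 0.663 and 0.621. Cdk6, a kinase partner of the D-type cyclins, had ratios of 0.604 and 0.814. The mitotic cyclin gene Ccnb1 was on the other side, with ratios of 1.42 and 1.21.

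All 12 genes of E2F factors and partners had a promoter peak in each library, with medians of 1.14 in WT and 0.950 in HY. E2f6, a repressive E2F, had 25, 14, 26 and 10 tags, with ratios of 0.695 and 0.551. E2f3, an activating one, had 73, 81, 84 and 77, with ratios of 1.38 and 1.31. The 14 S-phase genes regulated by E2F had a promoter peak in each library. Their medians, 0.999 and 0.983, were near those of all genes, 0.971 and 1.01. Among them Tk1 and Tyms, enzymes of thymidine nucleotide supply, were lowest. Tk1 had 39, 21, 47 and 21 tags, with ratios of 0.668 and 0.640, and Tyms had 30, 17, 37 and 16, with ratios of 0.703 and 0.619. The 14 regulators and targets of p53 also had a peak in each library, with medians of 1.00 and 1.17. Bbc3, which encodes the death protein PUMA, had ratios of 1.54 and 1.47, and Bax, another death gene, had 0.863 and 0.593. In none of these 3 lists was a promoter past 2-fold in either genotype, against the shares of all genes given above.

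The senescence genes, 8 for secreted factors and Lmnb1 for a protein of the nuclear lamina, were the list with the lowest medians, 0.671 in WT and 0.814 in HY, over the 7 of 9 genes with a promoter peak on both days. Timp1, an inhibitor of matrix proteases, had 41 tags at D0 and 12 at D8 for WT, and 47 and 11 for HY. Its ratios were 0.363 and 0.335. Of the 61 listed genes with a promoter peak on both days, Timp1 was the only 1 past 2-fold lower. The share of all such genes was 5.04% in WT and 5.24% in HY. The chemokine gene Cxcl1 had 37, 20, 33 and 16 tags, with ratios of 0.671 and 0.694. Promoter ratios were below 1 in both genotypes for 5 of the 7 genes and above 1 in both for the other 2, of which Lmnb1 (51, 45, 69 and 50 tags) was one. Mmp3 had no promoter peak in any library, and Igfbp3 had one in WT D8 alone, with 7 tags. Of the 3 preadipocyte and fibroblast markers with a promoter peak on both days, Pdgfrb (ratios of 0.445 and 0.375) and Col1a1 (0.475 and 0.421) were past 2-fold lower at D8, and Pdgfra was not (0.894 and 1.02). Promoter peaks were present for 6 markers of 6 at D0 and 3 at D8 for WT, and 5 and 3 for HY, and their part in the differences at Ccnd1 and Timp1 was not tested.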

How the data were processed

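ATAC-seq peak lists from 4 libraries (WT and HY, D0 and D8, 1 library per group) were analysed. According to the submitters' processing notes, Bowtie2, SAMtools, Picard and deepTools were used with mm9. For ChIP-seq the study names HOMER for JMJD1A peaks and MACS3 for transcription factor peaks. It describes the ATAC-seq steps as the same, without naming the caller used. Versions, the calling threshold and any Tn5 offset shift are not given in the sources used here. The authors deposited for each peak the fold enrichment of the summit over local background (a ratio, not normalised between libraries), the -log10 p and -log10 q, and a score that rescales -log10 q and was not used.

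Summit pileup and local background were solved from fold and -log10 p. All peaks were solved within 0.002 of the deposited -log10 p, and the solver was tested on simulated data. The lowest background of a list served as its depth. No read counts were used, so the number of tags is unknown. Sites, shares (Wilson intervals), ratios (exact binomial intervals) and motif matches were computed with Python 3.11.15, NumPy 2.4.6, pandas 2.3.3 and SciPy 1.17.1, and figures drawn with matplotlib 3.10.9. The reference was NCBIM37 (mm9) with its GENCODE annotation. Coordinates are 1-based. Peaks on unassembled contigs were left out.

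The members and lists were chosen with earlier results of these data known. Every promoter site of each gene was described, and of its other sites at most 5, first the one with the highest pileup and then sites called on 1 day or in 1 genotype only. Further sites were added after their values were seen, among them those past 2-fold and, at Cdkn1a and Rb1, all those called on 1 day only in both genotypes. Of each pathway list, at most 4 genes were named, by the most extreme mean promoter ratio or by having no promoter peak. One gene chosen by this rule is not reported here by name, and the list's counts and medians include it. Alternatives were windows of 10 and 100 kb, nearest-gene assignment, a -log10 q of at least 5, lists of equal length, 50% cover, median scaling, a 1.5-fold threshold, fold enrichment in place of pileup, and narrower promoters.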

Additional observations from a re-analysis of the deposited data

Results flagged for a closer look

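The site E2f1 +20494, at the start of 1700003F12Rik, was picked out because its D8 over D0 ratio went opposite ways in the genotypes. The ratio was 1.41 (0.884–2.25) in WT and 0.661 (0.356–1.18) in HY, from pileups of 37 and 42 tags in WT and 39 and 18 in HY. The difference between the genotypes was not tested, and each interval includes 1. The local background was 3.64 at D0 and 3.61 at D8 for WT, and 3.87 and 2.12 for HY, so it was lowest in the library with the lowest pileup.

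The site E2f1 -26032, in an intron of Pxmp4, had a peak in WT D8 and HY D0 and in neither other library. Both peaks had 7 tags, where the lowest pileup of any peak was 4 or 5 tags depending on the list. The difference was not tested.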

How the results depend on the processing

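The lists hold strong and weak peaks, and a missing peak can be a site just under the calling threshold. Of 101 alternative values for the shares and counts, 80 lay within the 95% interval of the main share or, for counts of genes, within 1.5 times, and 21 did not. The D0-only share was 18.4% in WT and 14.1% in HY with lists of equal length, and 54.5% and 56.8% when 50% cover was required. The D8-only share in WT was 9.68% with a window of 10 kb. The share of D0 sites open in HY only was 8.70% at a -log10 q of at least 5, 3.45% with lists of equal length and 27.2% with 50% cover. At D8 it was 5.17% and 7.46% under the first 2 of these, and the share open in WT only was 0% with a window of 10 kb and 0% by nearest gene.

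Of shared sites, the share past 2-fold lower at D8 in WT was 2.22% with median scaling and 0% by fold enrichment. In HY it was 0% with a window of 10 kb, 0% at a -log10 q of at least 5 and 22.9% past 1.5-fold. For HY against WT the lower share was 9.38% at D0 past 1.5-fold. At D8 it was 0% with a window of 10 kb, by nearest gene or by fold enrichment. Of 186 alternative ratios of single sites 180 stayed within the counting interval, and the WT ratio at Ccnd1 +506 turned to 1.01 by fold enrichment, where the local background was lower at D8 along with the pileup. With 1 library per group, no paired analysis and no test of day blocked by genotype was made. Depth limits the weak sites most: at 7 to 13 tags the exact intervals span several-fold.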

Other observations

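Among the 10 genes, 5 sites held the p53-like element with intact cores: Cdkn1a +6, Cdkn1a -11897, Mdm2 -7003, Rb1 +1805 and Rb1 +4984. Of these, Cdkn1a -11897 had 51 tags at D0 and 38 at D8 for WT, and 49 and 45 for HY. Rb1 +4984 was called at D0 only, with 9 tags in WT and 12 in HY. The sites with the element thus included ones open in all libraries and ones open at D0 only.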
